A study of Mus musculus with 8 samples.

Results

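The X-linked gene Clcn5, which codes for an endosomal chloride and proton exchanger, carries a group of microRNA (miRNA) hairpins, and the mature miRNAs of 5 of these hairpins are described here. The members are mmu-miR-500, mmu-miR-532-3p and mmu-miR-362-5p, to which mmu-miR-501-5p, mmu-miR-501-3p, mmu-miR-532-5p, mmu-miR-362-3p and mmu-miR-188-5p were added as the other strands of these hairpins or as products of Mir188 and Mir501, which lie between them; names ending in a star were left out. All 8 were found, each with 1 probe, among the 346 probes that the authors' comparison sheets list. Of these 8, 5 are also among the 431 probes of the deposited ratio table, of which 272 are named in a sheet and 159 have no name here, and miR-532-5p, miR-362-3p and miR-501-5p are in the sheets only. The members were selected by name with their responses on these same arrays already known, and miR-362-5p in particular had stood out for its difference between genotypes. All values below are therefore a description, and no p-value is given for them.

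The arrays measured mature miRNAs in mouse embryonic fibroblasts, primary cells of embryonic connective tissue, from ATM+/+ and ATM-/- littermates. ATM is the protein kinase that is switched on by DNA double-strand breaks. Every treated dish, of either genotype, received neocarzinostatin (NCS), an enediyne antibiotic that breaks both DNA strands as ionising radiation does, and was harvested at 4, 8 or 24 h, and each genotype has its own 0 h array. There was 1 array for each of the 2 genotypes and 4 times, 8 in all, and the labels give no age, strain or number of embryos. No group has a replicate, so an SD below runs over the 3 treated times, which are no replicates and are all divided by the same 0 h array.

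A few facts of the whole series bear on the members. Within each genotype the 0 h and 4 h arrays lay on 1 chip and the 8 h and 24 h arrays on another, per the deposited slide lists, so the times on separate chips cannot be told apart from the chips. On every chip the earlier time had position 1 and the later time position 2, so times within a chip cannot be told apart from the positions. Of 10 fibroblast markers, 9 were listed in the 4 h sheets, with 0 h intensities from 317 to 1524 in ATM+/+ and from 29.4 to 1027 in ATM-/- cells. Of the markers of other cells, the ATM+/+ sheet at 4 h listed 2 of 12 pluripotent, 3 of 7 epithelial, 2 of 5 blood, 1 of 4 neural, 4 of 4 muscle, 0 of 1 liver and 0 of 2 endothelial miRNAs. The highest of these 0 h intensities was 368, for an epithelial marker. The 4 muscle markers summed to 523 at 0 h, against 7090 for the fibroblast markers. The ATM-/- sheet at 4 h listed 1 of 7 epithelial, 1 of 5 blood and 4 of 4 muscle markers, and no marker of the other types. There the fibroblast markers had a median 0 h intensity of 111, against 164 for the epithelial marker and at most 122 for a muscle marker. Their sum was 2638, against 223 for muscle. The arrays hold no messenger RNA, so the loss of ATM was not checked on them.

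MicroRNAs are cut from hairpins by the nuclear enzyme Drosha and the cytoplasmic enzyme Dicer, and each hairpin can yield a mature strand from its 5′ arm (5p) and from its 3′ arm (3p). A mature strand finds its messenger RNA targets mainly through its seed, bases 2 to 8, so strands with 1 seed share most predicted targets. Hairpins that lie inside a gene are often transcribed together with it, while each hairpin is processed, and each strand kept or lost, separately. After DNA damage ATM signalling reaches miRNA processing through proteins such as KSRP, and p53 acts on both transcription and processing.

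Clcn5 spans X:7153810-7319358 on the minus strand of GRCm38.p6 in RefSeq, and all 5 hairpins lie within it on the same strand. In the direction of transcription Mir532 comes first, at X:7248402-7248497, followed after 345 bases by Mir188, at X:7247989-7248056. After a gap of 5942 bases comes Mir362, at X:7241982-7242046, then Mir501, at X:7241243-7241351, and last Mir500, at X:7237683-7237774. From the first hairpin to the last, gaps included, the cluster spans 10815 bases of a gene of 166 kb. Exon boundaries were not used here, so the hairpins were placed in the gene but not in an exon or intron.

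**Figure D1:**
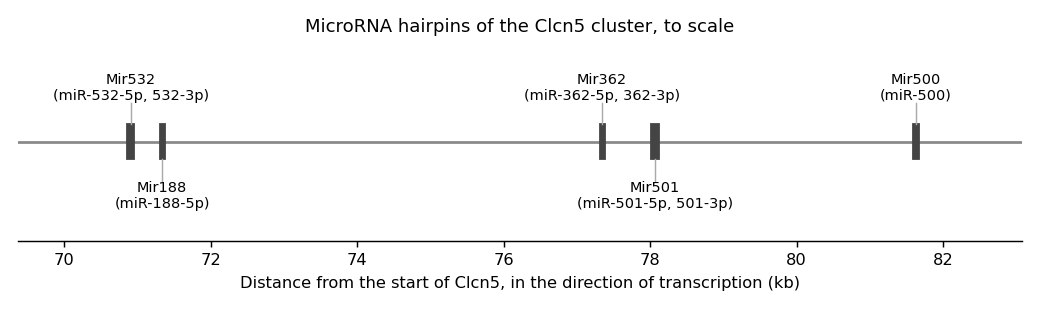
The 5 hairpins drawn to scale by their distance in kb from the start of Clcn5, with the members each one gives. Mir532 and Mir188 form a pair near 71 kb, Mir362 and Mir501 a pair near 78 kb, and Mir500 lies alone at 81.6 kb.

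The mature sequences are shown because their seeds and their likeness decide which members an array probe can tell apart. They are RefSeq's on GRCm38.p6, written 5′ to 3′ with the seed in capitals. The files name miR-500 without an arm, so both strands of Mir500 are given, and miR-532-5p is named only.
miR-362-5p: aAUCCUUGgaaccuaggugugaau
miR-500-5p: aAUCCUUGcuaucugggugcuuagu
miR-501-5p: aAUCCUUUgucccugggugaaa
miR-188-5p: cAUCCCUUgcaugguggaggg
miR-501-3p: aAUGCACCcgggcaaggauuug
miR-500-3p: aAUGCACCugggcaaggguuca
miR-362-3p: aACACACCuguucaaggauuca
miR-532-3p: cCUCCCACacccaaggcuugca

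Compared base by base from the 5′ end with no shift, the sequences fell into 2 like sets and miR-532-3p. miR-362-5p and miR-500-5p have the same seed, and miR-501-5p shares 6 of its 7 seed bases with either of them. miR-501-3p and miR-500-3p have the same seed and are identical at 18 of 22 positions, with the differences C9U, A18G, U21C and G22A (miR-501-3p first, counted from its 5′ end). miR-362-3p and miR-500-3p are identical at 17 of 22 positions. Probes for such like strands may bind the same RNA, which was not tested. miR-188-5p was less like the other 5p strands, identical to miR-362-5p at 11 of 21 positions. miR-532-3p matched no other member at more than 9 positions. Shifted matches were not counted, and from its base 2 miR-532-3p begins as miR-188-3p, which is no member, does from its first base.

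Before the responses, the signal behind them was read from the comparison sheets, each of which sets 1 treated array against the 0 h array of its genotype. A sheet gives a normalized intensity and a coefficient of variation for each probe it lists. Sheets were scaled pair by pair, so the intensities below are put on the scale of the 4 h sheet of the same genotype through their common 0 h array. Intensities of ATM+/+ and ATM-/- cells come from separately normalized sheets and are set side by side only as values. The ATM+/+ sheets listed 8, 6 and 7 members at 4, 8 and 24 h, and the ATM-/- sheets listed 4, 3 and 3. miR-362-5p, miR-362-3p, miR-501-5p and miR-532-5p are in no ATM-/- sheet, and what decided whether a sheet lists a probe is not given in the sources used here.

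miR-362-5p, which in human cells represses CYLD, a brake on NF-κB signalling, had ATM+/+ intensities of 26.8 at 0 h, 63.7 at 4 h, 47.0 at 8 h and 44.1 at 24 h. All 3 treated arrays lay above the 0 h array. The 0 h value was dim, at percentile 12.2 of the probes in the 4 h sheet. miR-501-3p, known in rat neurons as a repressor of a glutamate receptor subunit, had intensities of 25.8, 29.6, 51.8 and 45.7 at 0, 4, 8 and 24 h in ATM+/+ cells. Its 0 h and 4 h arrays were low and its 8 h and 24 h arrays high, which is also how the 2 chips divide the times. Its coefficients of variation were 45.5% and 60.4% at 0 and 4 h, against 12.7% and 10.8% at 8 and 24 h. In ATM-/- cells the same 4 intensities were 34.8, 37.8, 24.5 and 43.1, with a coefficient of variation of 98.4% at 8 h.

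miR-500, which in human cells also targets CYLD, had intensities of 83.3, 96.0, 94.7 and 92.7 in ATM+/+ cells and of 88.2, 95.3, 74.4 and 118 in ATM-/- cells, in the order 0, 4, 8 and 24 h. It was listed in all 6 sheets, with coefficients of variation from 3.90% to 16.7%. In ATM+/+ cells the 3 treated arrays lay close together and just above 0 h, while in ATM-/- cells the 8 h array was the lowest of the 4 and the 24 h array the highest. miR-532-3p, linked to mitochondrial fission and cell death in mouse heart muscle cells, had ATM+/+ intensities of 91.8, 65.1, 72.8 and 60.8, so that every treated array lay below 0 h. The ATM-/- arrays gave it 59.6, 63.6, 55.4 and 46.2, with the 0 h and 4 h arrays above the 8 h and 24 h arrays. miR-188-5p, which in mouse marrow stromal cells favours fat over bone formation, had 55.1, 34.3, 44.5 and 32.5 in ATM+/+ cells. Its treated arrays all lay below 0 h there, and the one ATM-/- sheet that lists it gave 24.4 at 0 h and 27.4 at 4 h.

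The 3 members of the sheets alone were dim. miR-532-5p had ATM+/+ intensities of 36.7, 48.1, 38.2 and 38.0 at 0, 4, 8 and 24 h. miR-362-3p had 23.3 at 0 h, 27.7 at 4 h and 28.6 at 24 h, and miR-501-5p had 19.8 at 0 h and 25.2 at 4 h. The lowest 0 h intensity of any probe in that 4 h sheet was 13.1 and its median 69.2.

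**Figure D2:**
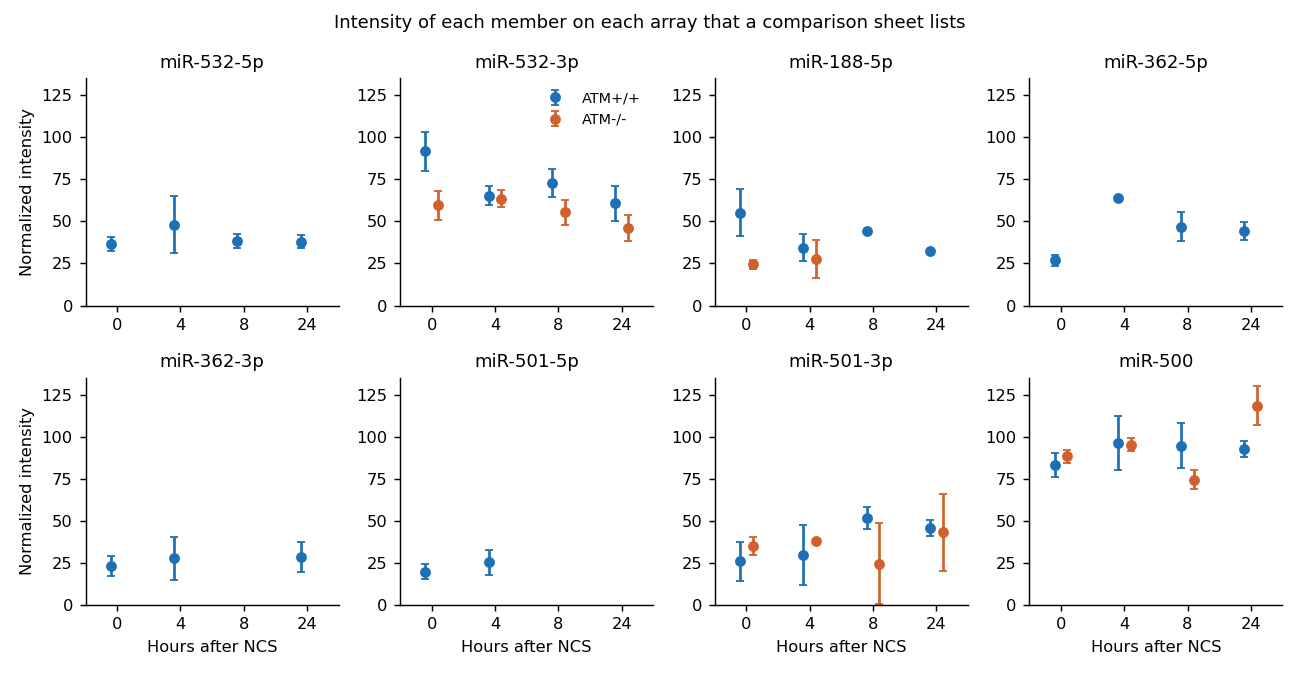
Normalized intensity of each member (vertical axis, linear, from 0) at 0, 4, 8 and 24 h (evenly spaced), on the scale of the 4 h sheet of each genotype. Points are single arrays, bars are the deposited coefficient of variation times the intensity, and empty places are arrays whose sheet does not list the member. miR-362-5p goes from 26.8 at 0 h to 63.7 at 4 h in ATM+/+ cells and has no ATM-/- point.

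To set a change against its measurement error, the 2 coefficients of variation of a sheet's pair were combined into a spread on the log2 scale. The number of spots behind them is not given, so this is the spread of single spots and not the error of their mean, and it does not hold the variation between cultures. In the authors' deposited table, meaning these sheets, miR-362-5p had log2 ratios to 0 h of 1.25, 0.81 and 0.72 at 4, 8 and 24 h in ATM+/+ cells. Each was larger than its spread, of 0.18, 0.32 and 0.25. The spread at 4 h rests on a coefficient of variation of 0.74% on the treated array, against a median of 11.3% in that sheet. miR-532-3p had deposited log2 ratios of -0.50, -0.34 and -0.59, all 3 larger in size than spreads of 0.22, 0.25 and 0.31. For miR-188-5p the authors' deposited table gave -0.68, -0.31 and -0.76, of which 2 were larger in size than the spread. Its coefficients of variation on the treated arrays at 8 and 24 h were only 0% and 1.89%. For miR-501-3p the authors' deposited table gave 0.20 at 4 h with a spread of 1.09, then 1.01 at 8 h and 0.83 at 24 h with spreads of 0.68 and 0.67. Across all listed members, 11 of 21 ATM+/+ log2 ratios exceeded their spread, and none of the 6 that belong to miR-532-5p, miR-362-3p and miR-501-5p did. The share of all listed probes that exceeded their own spread is not given here, so whether this count is usual for the sheets was not tested.

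In ATM-/- cells 4 of 10 listed log2 ratios of members exceeded their spread, again with no share over all listed probes to set beside them. Of these, 3 belonged to miR-500, which the authors' deposited table puts at 0.11, -0.25 and 0.43 for 4, 8 and 24 h, with differing signs. The other was miR-532-3p at 24 h, at -0.37 with a spread of 0.32. miR-501-3p had 0.12, -0.51 and 0.31, each within its spread, and miR-188-5p had 0.16 at 4 h, also within it.

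The ratio table covers both genotypes for 5 members. Its values are linear ratios of a treated array to 0 h of that genotype, and a log2 ratio of 1 is a 2-fold higher value. In ATM+/+ cells miR-362-5p stood at 2.72, 1.70 and 2.43 times its 0 h value at 4, 8 and 24 h, a mean log2 ratio of 1.16 ± 0.35 (SD over 3 times). In ATM-/- cells it stood at 0.67, 0.74 and 1.05 times the 0 h value, a mean log2 ratio of -0.31 ± 0.34. The 3 ATM+/+ values all lay above the 3 ATM-/- values. This also held for other probes, among them miR-98, miR-146a and miR-221, and its share over all probes is not given here. The difference of the log2 ratios, ATM+/+ minus ATM-/-, was 2.02, 1.20 and 1.21 at 4, 8 and 24 h, and 9 of the 431 probes had a higher mean difference. Since no ATM-/- sheet lists this probe, the intensities behind its ATM-/- ratios cannot be given.

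miR-501-3p stood at 0.73, 2.67 and 2.23 times its 0 h value in ATM+/+ cells and at 1.05, 0.63 and 0.77 times in ATM-/- cells. Its ATM+/+ values at 8 and 24 h were the highest and second highest of its 6, and its 4 h value lay below the ATM-/- value of that time. The mean log2 ratio was 0.71 ± 1.01 in ATM+/+ and -0.32 ± 0.37 in ATM-/- cells, and the difference was -0.52, 2.08 and 1.53 at 4, 8 and 24 h. The mean difference of 1.03 has an SD over times of 1.37, larger than itself.

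Differences within a chip, which also set position 2 against position 1, were read in both tables. For miR-501-3p in ATM+/+ cells the log2 difference from 0 to 4 h was -0.45 in the ratio table and 0.20, within its spread, in the authors' deposited table of sheets. From 8 to 24 h it was -0.26 in the ratio table and -0.18 in the sheets. Neither within-chip step reached 2-fold in either table, and the larger values at 8 h, 1.42 in the ratio table and 1.01 in the sheets, set arrays at the same position on different chips. For miR-362-5p in ATM+/+ cells the ratio table put the step from 0 to 4 h at 1.44 and the authors' deposited table of sheets put it at 1.25. The step from 8 to 24 h was 0.52 in the ratio table and -0.09 in the sheets, so its sign differs between the tables. The ATM-/- arrays of the ratio table gave -0.58 and 0.50 for miR-362-5p and 0.07 and 0.29 for miR-501-3p. The part of chip and position in these values was not tested.

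miR-500 stood at 1.09, 1.36 and 1.34 times its 0 h value in ATM+/+ cells and at 1.16, 1.21 and 1.27 times in ATM-/- cells. All 6 ratios lay above 1 and the genotypes overlapped. Its mean log2 ratios were 0.33 ± 0.18 and 0.28 ± 0.07, and their difference was 0.05 ± 0.13 (SD over 3 times). The sheets differ from the ratio table here at 8 h in ATM-/- cells, where the log2 ratio was -0.25 in the authors' deposited table and 0.28 in the ratio table.

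miR-532-3p stood at 0.78, 0.92 and 0.80 times its 0 h value in ATM+/+ cells and at 1.31, 1.55 and 1.02 times in ATM-/- cells. In the ratio table every ATM+/+ value was thus below 1 and every ATM-/- value above it. These signs also held for other probes, among them miR-298, miR-1899 and miR-1902. The mean log2 ratios of miR-532-3p were -0.27 ± 0.13 and 0.35 ± 0.30, and the difference was -0.62 ± 0.23. Of the 431 probes, 72 had a lower mean difference. The authors' deposited table placed the ATM-/- values at 0.09, -0.11 and -0.37 on the log2 scale. Those at 4 and 8 h were within their spreads, of 0.24 and 0.28. The genotypes thus had opposite signs at 4 h in both tables and at 8 and 24 h in the ratio table alone. The genotype difference kept its sign in the sheets, at -0.59, -0.23 and -0.23 for 4, 8 and 24 h, and no spread was computed for it. miR-188-5p stood at 0.62, 1 and 0.81 times its 0 h value in ATM+/+ cells and at 0.95, 0.71 and 0.81 times in ATM-/- cells. No value lay above 1 in either genotype, and the mean difference of the log2 ratios was -0.04 ± 0.56.

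**Figure D3:**
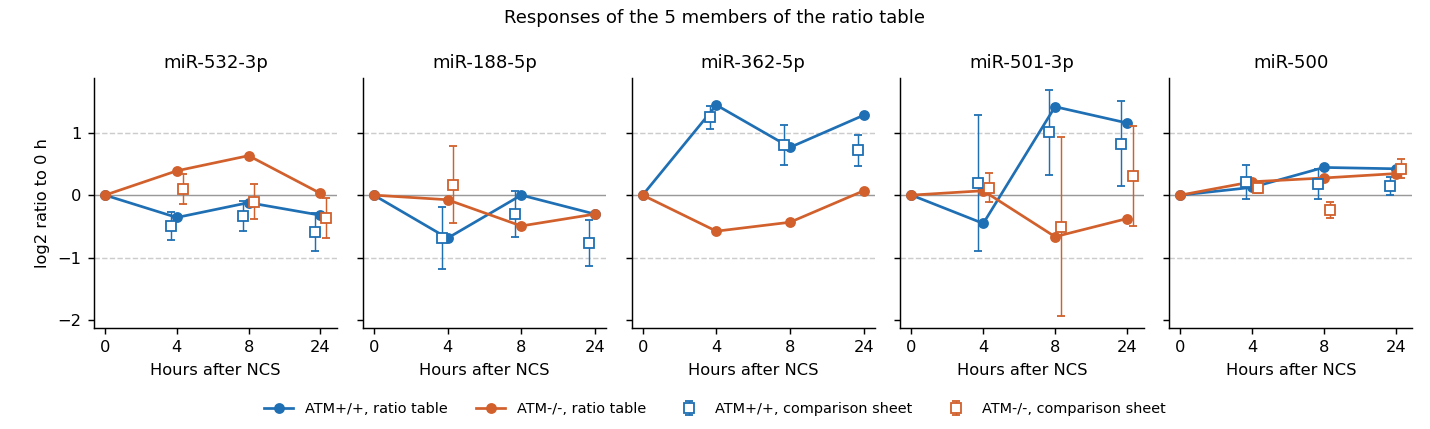
log2 ratio to 0 h (vertical axis) at 0, 4, 8 and 24 h (evenly spaced) for the 5 members of the ratio table. Filled points joined by lines are the ratio table, open squares the comparison sheets with the spread that their coefficients of variation give, and dashed lines mark 2-fold. In ATM+/+ cells miR-362-5p lies above 0 in both tables at all 3 times, and miR-501-3p at 8 and 24 h.

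The members were next read against all 431 probes. In ATM+/+ cells 1 of the 5 members, miR-362-5p, was at least 2-fold higher at 4 h, against 7.19% of all probes. At 8 h the 1 such member was miR-501-3p, against 6.03% of probes. At 24 h both miR-362-5p and miR-501-3p were at least 2-fold higher, against 10.4% of probes. On the mean of the 3 times miR-362-5p alone passed 2-fold, against 6.03% of probes, and 14 probes had a higher mean. Among the 272 named probes, the kind the members come from, the shares were higher, at 10.3%, 7.72% and 16.2% for 4, 8 and 24 h and 9.19% for the mean. These shares are background to members chosen on the same values, and nothing is read from the comparison.

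No member was 2-fold lower at any single time in ATM+/+ cells, where 8.97% of probe and time pairs were, or on the mean, where 7.19% of probes were. In ATM-/- cells no member passed 2-fold in either direction at any time, against 5.65% of probe and time pairs, or on the mean, against 1.16% of probes. The mean difference between genotypes was at least 1 for 2 members, miR-362-5p and miR-501-3p, against 9.98% of probes, and was at most -1 for 0 members, against 8.82%. Among named probes these shares of the difference were 14.7% and 13.6%. In the ATM+/+ sheets 1 of 8 listed members, miR-362-5p, was at least 2-fold higher at 4 h (7.07% of listed probes), 1 of 6, miR-501-3p, at 8 h (3.69%), and 0 of 7 at 24 h (5.75%). In the ATM-/- sheets none of 10 member and time pairs passed 2-fold, against 7.53% of all listed pairs.

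Both members that passed 2-fold were dim at 0 h. miR-362-5p and miR-501-3p belonged to the lowest 25% of 0 h intensities in the ATM+/+ sheet at 4 h, up to 38.1. Among the 55 such probes in the ratio table, 18.2% had an ATM+/+ mean at least 2-fold higher, against 7.29% of the 192 brighter listed probes. For the genotype difference these shares were 29.1% and 11.5%. miR-500, miR-532-3p and miR-188-5p were among the brighter probes. The median of the 5 members' means was 0.33 in ATM+/+ cells, where all probes had 0.01, and -0.29 in ATM-/- cells, where all probes had -0.06. Named probes had medians of 0.17 and -0.01, and the dim 25% of the ATM+/+ sheet at 4 h had an ATM+/+ median of 0.23.

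**Figure D4:**
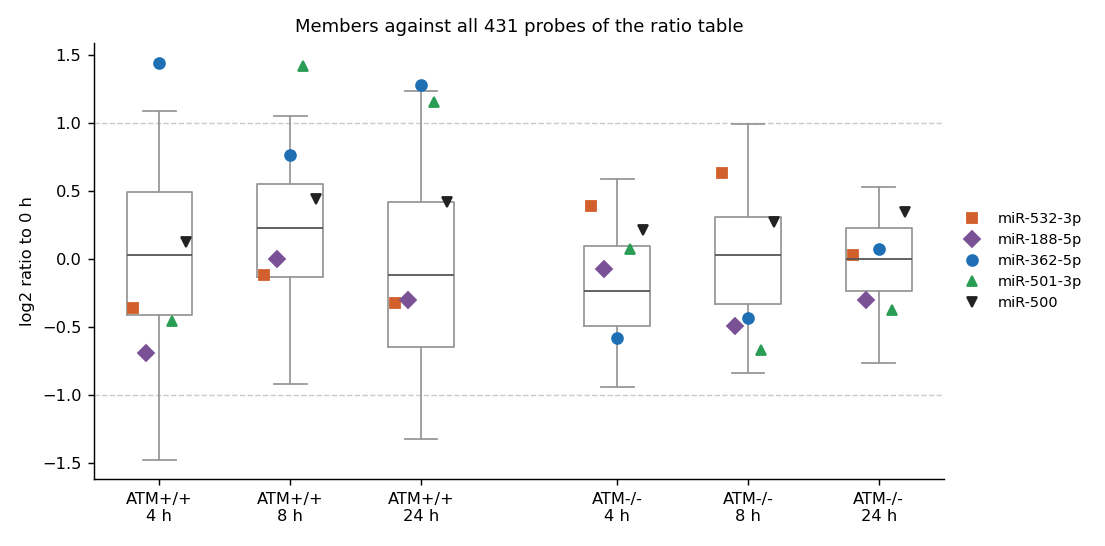
log2 ratio to 0 h of the 5 members (coloured points) on each treated array, over the distribution of all 431 probes of the ratio table. Boxes run from the lower to the upper quartile with the median as a line, whiskers reach the 5th and 95th percentiles, and dashed lines mark 2-fold. Only miR-362-5p at 4 and 24 h and miR-501-3p at 8 h lie above the upper whisker in ATM+/+ cells.

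The hairpins share a host gene and a strand, and the courses of their members over the 6 treated arrays differed. Of the 10 pairs of members 6 had a correlation above 0, with Pearson's r from -0.94 for miR-532-3p and miR-362-5p to 0.76 for miR-501-3p and miR-500. The pair in the middle of the cluster, miR-362-5p and miR-501-3p, had an r of 0.43, and the pair at its start, miR-532-3p and miR-188-5p, an r of 0.14. These 6 arrays hold 2 genotypes, and those of a genotype share a 0 h array, so the correlations describe these arrays only. Both arms of 4 hairpins were listed in the ATM+/+ sheet at 4 h in the authors' deposited table. There miR-362-5p had a log2 ratio of 1.25 and miR-362-3p of 0.25 with a spread of 0.76. miR-532-5p had 0.39 with a spread of 0.53 and miR-532-3p -0.50. miR-501-5p and miR-501-3p had 0.35 and 0.20, both within their spreads. miR-188-5p had -0.68 with a spread of 0.50, and miR-188-3p, which is no member, had 0.44 with a spread of 0.65.

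For 25 pairs of member and treated array both deposited tables give a log2 ratio. The signs were the same in 13 of 15 ATM+/+ pairs and in 5 of 10 ATM-/- pairs, with a ratio of exactly 1 counted as a different sign. Over all probes shared by both tables, same-sign shares for ATM+/+ were 93.5% (4 h), 87.8% (8 h) and 86.6% (24 h). For ATM-/- these shares were 78.7%, 59.2% and 82.2%. Whether the members differ from them was not tested. Across the 25 member pairs, the ratio table minus the sheet had a median of 0.22. It ran from -0.69, for miR-501-3p at 24 h in ATM-/- cells, to 0.74, for miR-532-3p at 8 h in ATM-/- cells. Over all shared probes of that 8 h sheet the ratio table lay higher by a median of 0.61.

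**Figure D5:**
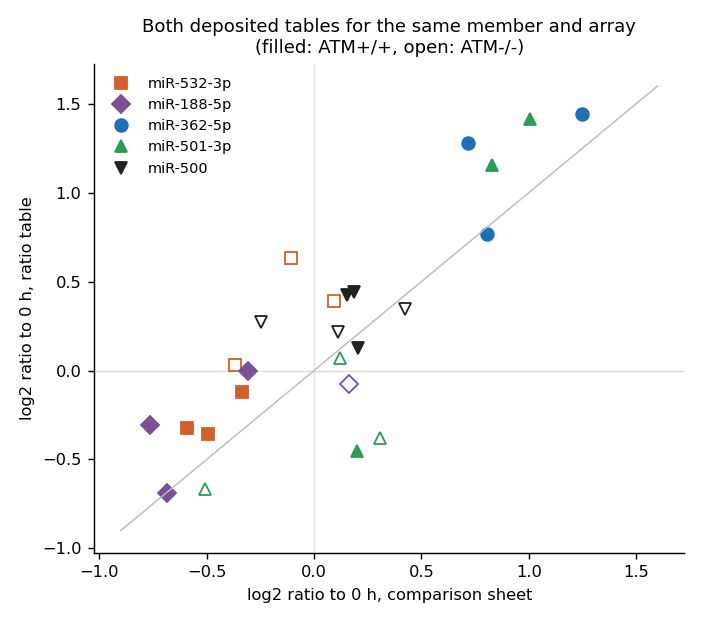
log2 ratio to 0 h in the ratio table (vertical axis) against the comparison sheet (horizontal axis) for the 25 pairs of member and array given by both. Filled symbols are ATM+/+ and open symbols ATM-/- arrays, and the diagonal marks equal values. The 3 miR-362-5p points lie to the upper right, and the open squares of miR-532-3p lie above the diagonal.

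The mean log2 ratios of the 5 members were 0.01, 0.50 and 0.45 in ATM+/+ cells at 4, 8 and 24 h, and 0.00, -0.14 and -0.05 in ATM-/- cells. This mean profile correlated with miR-501-3p at r = 0.98 over the 6 arrays. With the other members r was 0.73 for miR-500, 0.59 for miR-362-5p, 0.51 for miR-188-5p and -0.61 for miR-532-3p. Among the 267 other named miRNAs of the ratio table, the 5 with the most similar profile by Pearson's r over these 6 arrays were miR-299 (0.97), miR-1900 (0.91), miR-186 (0.88), miR-148a (0.86) and miR-146a (0.85). miR-299 had log2 ratios of -0.10, 0.64 and 0.61 in ATM+/+ cells, against -0.38, -0.43 and -0.12 in ATM-/- cells. The mean of miR-146a, which dampens NF-κB signalling, was 2.11 in ATM+/+ and 0.38 in ATM-/- cells, so its size differs from that of the mean profile. It was not among the 5 most alike by Spearman's correlation or with centred arrays. Over 6 arrays such an r is a description of likeness and not a finding.

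Other miRNAs of the X chromosome gave a comparison by position. The list used was drawn up by name and not checked to hold every X-linked miRNA, so its counts and ranks hold for the list alone. Of its 29 names, 16 are in the ratio table, 15 of them placed on X by name in RefSeq. Their mean log2 ratio in ATM+/+ cells was above 0 for 10 of 16, with a median of 0.33, against 50.8% and a median of 0.01 over all probes. In ATM-/- cells 6 of 16 were above 0, with a median of -0.03, against 37.1% and -0.06 over all probes. Over named probes 60.3% lay above 0 in ATM+/+ and 47.1% in ATM-/- cells, with medians of 0.17 and -0.01. The 2 highest of the list in ATM+/+ cells were miR-98, a let-7 relative, at 1.04 ± 0.13 and miR-221, a repressor of the cell cycle inhibitor p27, at 0.89 ± 0.12. The 2 lowest of the list were miR-452 at -0.95 ± 0.42 and the myeloid miR-223 at -0.46 ± 0.47 (SD over 3 times). On the same measure the 5 members ran from -0.33 for miR-188-5p to 1.16 for miR-362-5p, which lay above miR-98.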

How the data were processed

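Per the file headers, the deposited sheets give a normalized intensity for each probe on a treated and a 0 h array, a coefficient of variation and a log2 ratio. The steps from scan to normalized value, and what decided which probes a sheet lists, were not given in any label or header. The authors' ratio table holds, as deposited, linear ratios to the 0 h array of each genotype with 2 decimals. All 431 rows hold 1 in both 0 h columns.

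Sheet columns were tied to samples through the deposited slide lists. Ratios were taken to log2 with no pseudocount. Sheets of a genotype were scaled to its 4 h sheet by constant factors from 0.805 to 1.22. The spread of a sheet's log2 ratio was the root of the summed squares of both coefficients of variation, over the natural log of 2. Members, lists and the rule for named miRNAs (all members, other unstarred products of these hairpins, seed sharers, the 5 most alike, and the 2 highest and 2 lowest of the X list) were chosen with earlier results of these data known. Centring, quantile normalization, the sheets, left-out times and a 1.5-fold limit were tried. The functions were checked on simulated data. Python 3.11.15, NumPy 2.4.6, pandas 2.3.3 and SciPy 1.17.1 were used. The number of arrays limits the precision.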

Additional observations from a re-analysis of the deposited data

Results flagged for a closer look

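miR-532-3p lay below its 0 h value at all 3 times in ATM+/+ cells and above it at all 3 times in ATM-/- cells in the ratio table. Other probes had the same signs, among them miR-298, miR-1899 and miR-1902, and their share over all probes is not given here. The mean difference of the log2 ratios was -0.62, and 72 of the 431 probes had a lower mean difference. The difference was not tested, since each genotype and time has 1 array. In the authors' deposited table the ATM-/- log2 ratios were 0.09, -0.11 and -0.37 at 4, 8 and 24 h. In the ratio table they were 0.39, 0.63 and 0.03. Over all probes shared with the ATM-/- 8 h sheet, the ratio table lay higher by a median of 0.61.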

How the results depend on the processing

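The count of members with an ATM+/+ mean at least 2-fold higher, 1 as reported, was 0 after quantile normalization and 0 with the sheets' log2 ratios, where miR-362-5p stood at 0.94 and 0.92. It was 2 at a limit of 1.5-fold, and from 1 to 2 with each time left out, with miR-501-3p joining without 4 h. The count with a mean difference of at least 1, 2 as reported, was 1 with centred arrays, 1 after quantile normalization and from 1 to 2 with each time left out. It was 0 with the sheets, whose ATM-/- part does not list miR-362-5p. Without 8 h the miR-501-3p difference was 0.50, and without 24 h it was 0.78. Of the 5 most alike miRNAs, 2 were also named by Spearman's correlation and 3 with centred arrays. Over 86 alternative values of the members' mean responses and differences, 79 moved by less than the SD over times. Those with a time left out, 15 for each time, could not move that far, since the SD runs over the same 3 times. Of the rest, 14 of 15 moved by less with centred arrays, 13 of 15 after quantile normalization and 7 of 11 with the sheets. Of the 86 values 5 changed sign, all 5 of them under 2-fold as reported. Among these was miR-532-3p in ATM-/- cells, at -0.13 with the sheets. The 0 h intensities of miR-362-5p and miR-501-3p were among the lowest 25% listed, no background values were used here, and the single 0 h array of each genotype limits every response.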

Other observations

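One other unstarred product of these hairpins was listed, miR-188-3p, in the ATM+/+ sheet at 4 h alone. Its intensity was 20.1 at 0 h and 27.4 at 4 h, and its log2 ratio in the authors' deposited table, 0.44, was within the spread of 0.65 that its coefficients of variation give. Its RefSeq sequence is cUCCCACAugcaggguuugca with the seed (bases 2 to 8) in capitals.

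Among all mature mouse miRNAs of RefSeq, 1 outside the cluster shares a seed with a member and is named in the files. This is miR-329, whose 3p strand has the seed of miR-362-3p, and which had a mean log2 ratio of -0.31 in ATM+/+ and 0.03 in ATM-/- cells. The files do not name its arm.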
